A study of Spodoptera litura with 9 samples.

Results

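The net change in long non-coding RNAs (lncRNAs) was followed in testes of the moth Spodoptera litura, from the feeding larva to the new pupa. The comparison set 3 libraries from sixth instar larvae aged 4 days (L6D4, testes still paired) against 3 libraries from pupae on day 0 (P0D, testes fused), 6 of the 9 libraries of the series. All 2476 lncRNA rows of the deposited table entered it. The other 3 libraries, from sixth instar larvae aged 6 days (L6D6, prepupae with testes fusing), served only to say when a change arose. Per the labels, larvae were reared on artificial diet in 1 temperature, humidity and light regime, and for the pupae the same regime is given with no diet. The labels name 9 dissected males and, for each stage, 3 repeats. They do not say whether the 9 are per repeat, per stage or in all, nor whether a repeat was 1 animal or a pool, so p-values cover the spread among these libraries only, and part of that may be technical. Stage, age and fusion change together between the groups and cannot be told apart.

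An lncRNA is a transcript without a recognised protein product. Some act on transcription or chromatin near their own gene, others on RNA or protein elsewhere in the cell, and for most no role is known. Moth larvae carry a pair of testes that come together and fuse around the larval-pupal moult, while germ cells inside pass from spermatogonia and spermatocytes towards sperm. The moult is driven by ecdysteroid hormone, with juvenile hormone falling beforehand. The table is one of lncRNAs and holds no marker genes of testis, so the labelled tissue could not be checked. In whole testes, fewer cells of a type and less RNA per cell cannot be told apart.

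The 6 libraries held between 2665569 and 4262524 lncRNA counts, and a pair of lncRNAs, the assembled transcript MSTRG.17821.1 and the RefSeq gene LOC111353488, took between 46.9% and 59.0% of them. The lowest of these shares belonged to P0D replicate 3, which stood apart in composition, with a scaling factor (TMM) of 1.45 against 0.741 to 1.06 in the other 5. At least 1 count was found for 2103, 2087 and 2042 lncRNAs at L6D4, and for 2129, 2159 and 2157 at P0D. Every P0D library therefore detected more lncRNAs than every L6D4 library, by 71 on average, with p = 0.1 by exact permutation (two-sided), the lowest value possible for 3 against 3. Thinned to 2665569 counts each, the means were 2067 and 2131, again with an exact permutation p of 0.1.

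Between larva and new pupa 509 of 1913 tested lncRNAs changed, 26.6% of those tested. Of these, 270 were higher at P0D (14.1% of those tested) and 239 were lower (12.5%). Calls rest on edgeR's quasi-likelihood test with the Benjamini-Hochberg adjusted p below 0.05. Among the calls, rises were the larger changes. The median log2 fold change was 1.88 among the rises (quartiles 1.13 and 3.29) and -1.25 among the falls (quartiles -1.82 and -0.85). A rise of at least 4 on the log2 scale was estimated for 39 lncRNAs and a fall of that size for 14. When the test asked for a change beyond 2-fold, 185 lncRNAs passed, 9.67% of those tested, with 122 higher and 63 lower. Levels are CPM, a library's lncRNA counts relative to its TMM-scaled total. They are thus relative to the other lncRNAs of the library, and are not plain shares of its counts. They did not overlap between the 6 libraries for 738 tested lncRNAs (38.6%), among them 261 of the 270 called higher and 227 of the 239 called lower.

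The split into rises and falls depended on scaling. When libraries were scaled by their totals alone, the median log2 fold change of all tested lncRNAs moved to 0.40, from 0.01 with TMM, and the 471 calls split into 373 higher and 98 lower. Changes are therefore given relative to the bulk of lncRNAs. Without P0D replicate 2 the test called 204 higher and 159 lower.

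**Figure D1:**
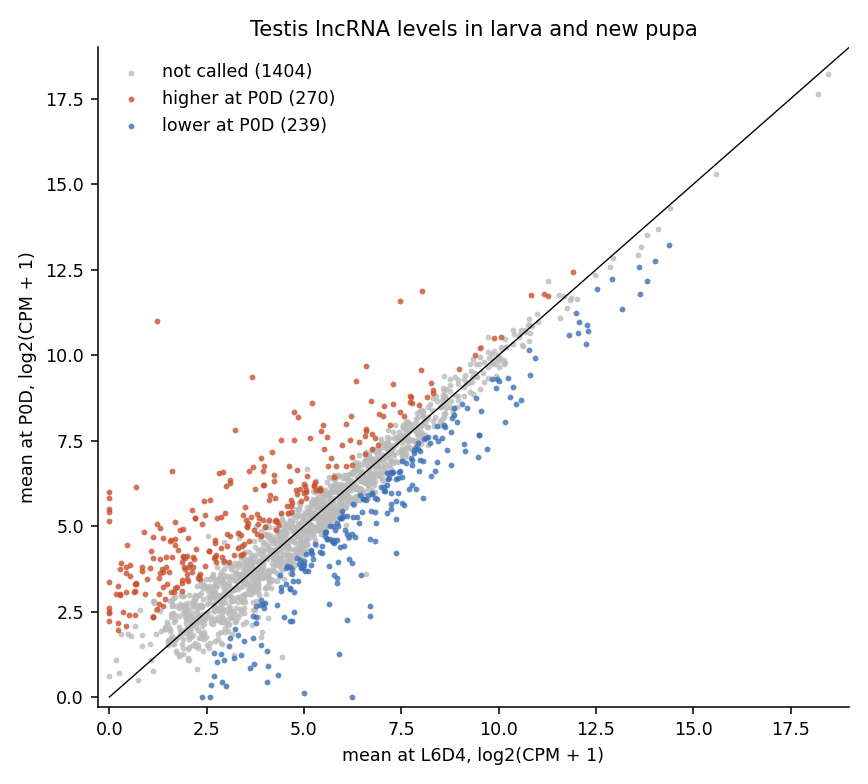
Mean level of each of 1913 tested lncRNAs at L6D4 (horizontal axis) and at P0D (vertical axis), both as log2(CPM + 1), with the line of equal levels. The 270 lncRNAs called higher spread farther from the line than the 239 called lower, and the rises reach to lncRNAs with no count at L6D4.

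With TMM scaling, falls were more frequent than rises among the lncRNAs with many counts, and rises among those with fewer. The median level over all 9 libraries was 27.0 CPM for the rises and 52.0 CPM for the falls. The size of called changes went with level too, with a median absolute log2 fold change of 2.84 under 10 CPM. It was 0.99 from 100 to 1000 CPM and 1.12 at 1000 CPM or more. The larger size of the rises was not separated from their lower level. Among 487 lncRNAs under 10 CPM, 71 rose and 34 fell. From 10 to 100 CPM 139 rose and 115 fell, and from 100 to 1000 CPM 51 rose and 71 fell. At 1000 CPM or more 9 rose and 19 fell of 78 tested. With totals alone the direction of this last group turned, with 25 higher and 14 lower. Without P0D replicate 2 it held 3 higher and 18 lower, and without L6D4 replicate 3 it held 3 and 16. Without P0D replicate 3 it held 14 higher and 18 lower, and the median log2 fold change of the 78 went from -0.11 to 0.05. Of the 20 lncRNAs with the most counts 8 fell and 1 rose, against 6 and 1 with library totals alone. The 2 that lead the table were not called in the main fit, though LOC111353488 was called lower under 1 of 19 alternatives. MSTRG.17821.1 stood at 306789, 354948 and 418860.0 CPM at L6D4 and at 407788, 305487 and 204444 at P0D. LOC111353488 stood at 269916, 269899 and 358311 CPM at L6D4 and at 286169.6, 211115 and 119565 at P0D. For both the libraries of the ends overlapped, and the log2 fold changes of -0.24 (SE 0.27) and -0.54 (SE 0.30) had adjusted p = 0.556 and 0.208 in edgeR's quasi-likelihood test.

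The fallen lncRNAs gave up a large part of the counts that this leading pair left over. Outside the pair, the 239 lncRNAs called lower held 32.9%, 32.8% and 35.1% of a library's counts at L6D4 and 17.4%, 17.2% and 18.4% at P0D. The 270 called higher held 4.91%, 4.48% and 3.63% at L6D4 and 11.3%, 12.5% and 14.1% at P0D. The shares themselves are not TMM scaled, but the lncRNAs summed were called with TMM and picked by the same difference, so the shares describe its size and test nothing. At L6D6, whose libraries were not part of that difference, the fallers held 20.5% ± 1.76 and the risers 11.9% ± 0.27 (SD, n = 3). Both of these lay near the pupal shares. Few lncRNAs carried most of it. The 10 largest losses made up 65.1% of all CPM lost by fallers, and the 10 largest gains 51.7% of all CPM gained by risers.

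**Figure D2:**
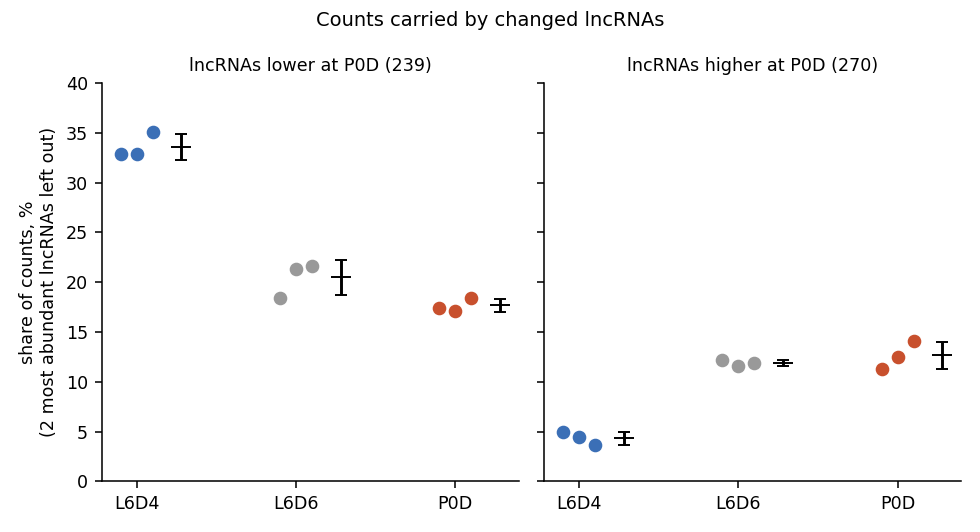
Share of each library's counts, in percent and with the 2 most abundant lncRNAs left out, held by the lncRNAs called lower (left) and higher (right) at P0D. Points are libraries, and bars show the mean and SD of 3. The L6D6 libraries lie near the P0D libraries in both panels.

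Annotation covered few of the changed lncRNAs. Of 1665 tested transcripts from the assembly 450 changed (27%), and of 248 with a RefSeq accession 59 changed (23.8%). An accession led to a gene symbol in the reference for 132 tested lncRNAs, of which 31 changed, 12 higher and 19 lower. With library totals as the only scaling that split turned to 25 higher and 12 lower. Without P0D replicate 3 the count was 22 higher and 17 lower, and without P0D replicate 2 it was 7 higher and 16 lower. All but 1 of the 31 belong to genes without a known product. The exception, XR_002696741.1, is assigned in the current reference to the protein-coding gene LOC111350830. The reference table holds no sequences, so none is shown.

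Among rises with a gene symbol and a mean count of at least 50, a pair of transcripts of LOC111360913 were the largest. Rises on fewer counts, given below with their neighbours, include larger folds than that of XR_002697178.1. XR_002697178.1 stood at 14.5, 34.0 and 35.5 CPM at L6D4 and at 317, 313 and 247 CPM at P0D. That is a 10.4-fold rise (log2 fold change 3.40, SE 0.29) with every pupal library far above every larval one. XR_002697176.1 had no count at L6D4 and 39.5, 35.7 and 27.2 CPM at P0D, at least 93.5-fold higher when the larva is set to a limit of 3 counts over its 3 libraries (0.365 CPM). The sum over the 4 tested transcripts of this gene had a log2 fold change of 0.44 (adjusted p = 0.0611 by edgeR), so the rise of these transcripts was not called for the gene. LOC111360892 stood at 82.7, 82.0 and 123 CPM at L6D4 and at 255, 238 and 163 CPM at P0D (log2 fold change 1.20, SE 0.22). The lowest pupal library still lay above the highest larval one. LOC111358040 rose unevenly, from 10.6, 15.4 and 27.4 CPM to 75.6, 165 and 24.5 CPM (log2 fold change 2.34, SE 0.59). Its P0D replicate 3 lay inside the larval range, and its call ended without P0D replicate 2 (adjusted p = 0.0633) or L6D4 replicate 1 (0.0531, edgeR). For these 4 edgeR gave adjusted p from 3.37e-06 to 0.0125.

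**Figure D3:**
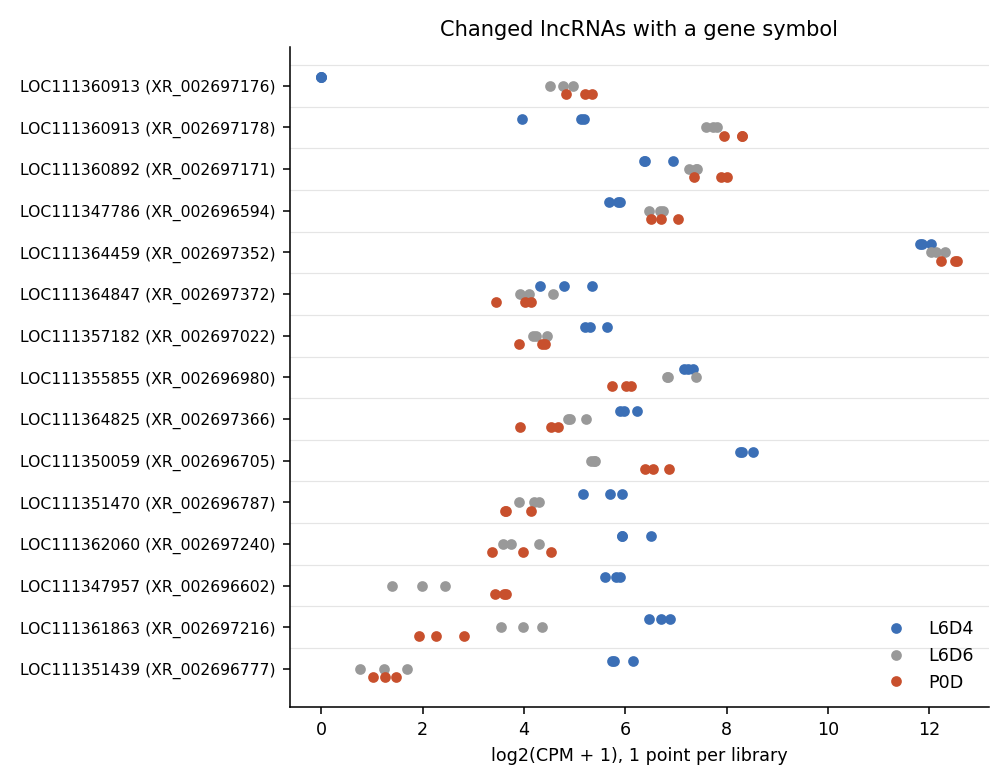
Level of 15 changed lncRNA transcripts with a gene symbol, in log2(CPM + 1) with 1 point per library, for L6D4, L6D6 and P0D. Shown are those averaging 50 counts or more over L6D4 and P0D and with ends that do not overlap, the 5 risers at the top and the 10 largest fallers below them, and in each row the L6D4 and P0D points do not overlap.

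Falls with a gene symbol were led by LOC111351439 and LOC111361863. LOC111351439 stood at 70.0, 52.2 and 54.2 CPM at L6D4 and at 1.38, 1.02 and 1.77 CPM at P0D, a 42.3-fold fall (log2 fold change -5.37, SE 0.37). LOC111361863 stood at 103, 88.0 and 117 CPM at L6D4 and at 6.07, 2.81 and 3.79 CPM at P0D, a 24.4-fold fall (log2 fold change -4.60, SE 0.33). In the pupa they were left with 16 and 48 counts over the 3 libraries. Their timing differed, since LOC111351439 was already at 1.34, 0.701 and 2.22 CPM at L6D6, while LOC111361863 stood at 10.7, 19.4 and 14.7 CPM there.

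Moderate falls were seen in LOC111362060, LOC111351470, LOC111364825 and LOC111350059. LOC111362060 went from 89.8, 60.3 and 59.8 CPM to 9.38, 14.8 and 22.2 CPM, and LOC111351470 from 60.3, 34.7 and 51.2 CPM to 11.3, 11.5 and 16.7 CPM. LOC111364825 went from 61.5, 58.2 and 73.9 CPM to 22.1, 24.5 and 14.1 CPM, and for none of these did the ends overlap. LOC111350059 differed in its course, at 316, 308 and 365 CPM at L6D4, 41.0, 38.8 and 40.5 CPM at L6D6 and 92.7, 116 and 83.0 CPM at P0D. It was lowest in the prepupa, and its pupal level was 3.39-fold under the larval one. LOC111355855 kept a high level in the prepupa, with 149.5, 142 and 161 CPM at L6D4, 112, 114 and 167 CPM at L6D6 and 67.9, 63.5 and 52.2 CPM at P0D (log2 fold change -1.30, SE 0.21). LOC111364847 went from 26.6, 18.9 and 39.5 CPM to 15.2, 16.6 and 9.84 CPM (log2 fold change -1.02, SE 0.33). Its call ended under 10 of the 19 alternatives that gave a value, among them leaving out any library other than L6D4 replicate 2 or L6D6 replicate 3 (adjusted p between 0.0504 and 0.162, edgeR). For the 7 others adjusted p lay between 1.72e-06 and 0.000653 in edgeR's quasi-likelihood test.

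For lncRNAs with no known function, the coding genes beside them are the main landmark, and the reference was used only for which genes lie next to each other. A neighbour is no sign that the lncRNA acts on it. A coding gene with a given name lay beside or across 56 tested lncRNAs, of which 7 rose and 8 fell, against 14.1% and 12.5% of all tested lncRNAs. These shares are near that background. LOC111347786, beside Bsg, the gene of basigin, a membrane glycoprotein of cell contacts, rose from 50.5, 58.5 and 57.2 CPM to 90.0, 103 and 130.4 CPM. LOC111348367, beside Cad86C, a gene of the cadherin family of adhesion proteins, had 2 counts in all 3 larval libraries and 143 in the pupal ones. It stood at 1.88, 4.91 and 6.10 CPM at L6D6 and at 10.8, 15.1 and 11.4 CPM at P0D, and the ratio of pupal to larval counts at equal depth was 51.0 (95% interval 13.9 to 425, exact, counting error only). Both kept their calls under every alternative tried, with main adjusted p = 0.00394 and 0.000158 (edgeR).

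Next to a pair of membrane genes the changes were smaller or rested on low counts. LOC111364459 lies beside Sec24CD, a COPII coat gene of the secretory pathway, and stood at 3730.0, 4179.9 and 3615 CPM at L6D4 and at 6012, 5812 and 4838 CPM at P0D (1.45-fold). This is a small change in an lncRNA with a mean of 15903 counts per L6D4 or P0D library, and its call (adjusted p = 0.0294) ended under 7 alternatives, the replicate block (0.0518) and the fit of L6D4 and P0D alone (0.0684) among them (edgeR). Beside Flo1, a gene of the flotillin family of membrane scaffold proteins, lies LOC111360709. Its transcript XR_002697157.1 rose from 4.14, 2.81 and 2.03 CPM to 6.90, 13.0 and 10.1 CPM, and XR_002697160.1 from no count to 1.66, 10.5 and 1.77 CPM, at least 12.7-fold. The main transcript of that gene, XR_002697156.1, stood at 49.0 ± 3.20 and 45.9 ± 10.2 CPM (SD, n = 3), and the sum over its transcripts was not called (log2 fold change 0.22, adjusted p = 0.482 by edgeR). Without P0D replicate 2 the call of XR_002697157.1 ended (adjusted p = 0.052, edgeR).

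The remaining risers with a named neighbour lie beside a hormone receptor and a chromatin gene. LOC111350494, beside Ada2b, a subunit of histone acetyltransferase complexes, had 2 counts over the larval libraries and stood at 11.3, 8.93 and 14.1 CPM in the pupal ones, a ratio of 47.1 (95% interval 12.8 to 393, exact, counting error only). LOC111350830, the gene now annotated as coding, lies beside Dh44-R2, a receptor of the diuretic hormone DH44. It stood at 0.886, 1.05 and 4.05 CPM at L6D4 and at 6.35, 12.0 and 4.04 CPM at P0D, and with 1 pupal library inside the larval range its call ended under 9 alternatives (adjusted p between 0.0591 and 0.19, edgeR). LOC111354302, with no named neighbour, stood at 9.76 ± 1.41 and 17.0 ± 1.43 CPM (SD, n = 3), and its call (adjusted p = 0.0358) ended under 10 alternatives (0.0534 to 0.125, edgeR).

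The 8 falls with a named neighbour include several in which the lncRNA lies across a coding gene. LOC111353724 overlaps Snoo, whose product belongs to the Ski and Sno family of regulators of TGF-beta signalling. It stood at 95.7, 99.9 and 92.2 CPM at L6D4, at 91.7, 90.7 and 97.3 CPM at L6D6 and at 55.7, 55.1 and 47.4 CPM at P0D, so the larval and prepupal libraries overlapped and the pupal ones lay wholly below both (log2 fold change -0.86, SE 0.17). LOC111364990 overlaps Ubr3, a ubiquitin ligase gene, and stood at 43.4, 33.3 and 37.5 CPM before and 23.2, 20.4 and 19.9 CPM after. LOC111353519, beside the glycosylation gene Alg3, fell 1.67-fold, and LOC111360926, beside Copg1 of the COPI vesicle coat, fell 1.64-fold with P0D replicate 1 inside the larval range. LOC111357182, beside st4, fell 2.30-fold. With library totals as the only scaling each of these 5 calls ended (adjusted p between 0.0782 and 0.204). That of LOC111353519 also ended on leaving out replicate 3 of either stage or P0D replicate 2, and that of LOC111360926 in the block, in the fit of L6D4 and P0D alone and on leaving out replicate 2 or 3 of either stage (0.0506 to 0.101, edgeR).

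Larger falls with a named neighbour were in lncRNAs of low counts. LOC111351442 lies beside kin17, whose product binds DNA and RNA, and stood at 18.9, 20.3 and 24.8 CPM at L6D4 and at 3.31, 2.81 and 6.05 CPM at P0D. LOC111352622, beside Lamtor5, a member of the Ragulator complex of lysosomes, went from 8.86, 10.9 and 14.2 CPM to 1.10, 1.28 and 0 CPM. LOC111347958, beside c12.2, stood at 21.3, 19.98 and 36.0 CPM at L6D4, at 80.2, 112 and 141 CPM at L6D6 and at 4.42, 7.40 and 2.02 CPM at P0D. The prepupal libraries lay above both ends. All 3 kept their calls under every alternative tried, with main adjusted p between 0.00122 and 0.00256 (edgeR).

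Overlap could be read only for lncRNAs with a gene symbol, of which 19 fell and 12 rose among 132 tested. Over all tested lncRNAs 12.5% fell and 14.1% rose. Of the 38 tested lncRNAs that overlap a coding gene, 7 fell and none rose. Besides those at Snoo and Ubr3, and the pair beside Alg3 and Copg1, which overlap other coding genes, these were LOC111360520, LOC111347957 and LOC111348396. LOC111347957 stood at 58.8, 55.4 and 47.6 CPM at L6D4 and at 11.6, 9.70 and 11.1 CPM at P0D. LOC111348396, which overlaps the same coding gene, LOC111347950, stood at 207, 226 and 249 CPM and then at 150.1, 156 and 115 CPM. LOC111360520 had 39 counts over the larval libraries and 3 over the pupal ones, a ratio of 18.2 at equal depth (95% interval 5.79 to 92.1, exact, counting error only). For these 3 edgeR gave adjusted p from 0.000124 to 0.0128, and the call of LOC111348396 ended with library totals alone (0.19) or without L6D4 replicate 3 (0.0532). The split depended on scaling: with library totals alone 3 of the 38 were higher and 2 lower, and without P0D replicate 3 there were 3 and 6. Without L6D4 replicate 3 the group held 4 falls. With identical rows kept once it held 31 lncRNAs, with 7 falls and no rise. The median log2 fold change of the group then went from 0.06 to -0.29. The sources do not say whether counting used the strand, so reads of these lncRNAs and of the genes they overlap may be mixed.

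Short lists of neighbour genes, by theme, gave few members, too few to set against the 26.6% called over all tested lncRNAs. No lncRNA beside a hormone gene of the list was tested, since LOC111351795, beside the ecdysteroid hydroxylase gene Cyp18a1, had too few counts. The same held for LOC111363950 beside the germline gene Boule. The matrix and adhesion list had 1 tested member, beside Bsg, which rose, and it does not hold Cad86C. The vesicle and membrane list had 4 tested transcripts of 2 genes. The one beside Sec24CD rose, as did 2 of the 3 beside Flo1, whose sum was not called. That list does not hold Copg1, beside which LOC111360926 fell. The TGF-beta list had 1 tested member, at Snoo, which fell.

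Transcripts without a gene symbol held the largest changes of all. MSTRG.15510.1 stood at 0.591, 1.40 and 2.03 CPM at L6D4, at 7986, 7224 and 8156 CPM at L6D6 and at 1779, 2493 and 1878 CPM at P0D. The transcript was close to absent in the larva and abundant at both later stages, and its pupal level was 1530.1-fold the larval one. The largest gains in CPM were in MSTRG.19852.1 and XR_002696919.1. MSTRG.19852.1 went from 256, 195 and 335 CPM to 3489.9, 3738 and 3933 CPM (14.2-fold), and XR_002696919.1 from 181, 188 and 154 CPM to 3223, 2877 and 3160.2 CPM (17.7-fold). Replicates of XR_002696919.1 lay close together, while those of MSTRG.19852.1 spread more at L6D4 (262 ± 70.3 CPM, SD, n = 3). Adjusted p was 3.93e-07 for MSTRG.19852.1 and 1.25e-07 for XR_002696919.1 in edgeR's test. The largest losses in CPM were in XR_002696821.1 and MSTRG.11235.2. XR_002696821.1 went from 22352, 18338 and 22940.2 CPM to 10480.3, 9568 and 8732 CPM (log2 fold change -1.14, SE 0.17), and MSTRG.11235.2 from 11981, 14645 and 16509 CPM to 4891, 4737 and 4175 CPM (log2 fold change -1.64, SE 0.17). These 5 kept their calls under every alternative tried.

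**Figure D4:**
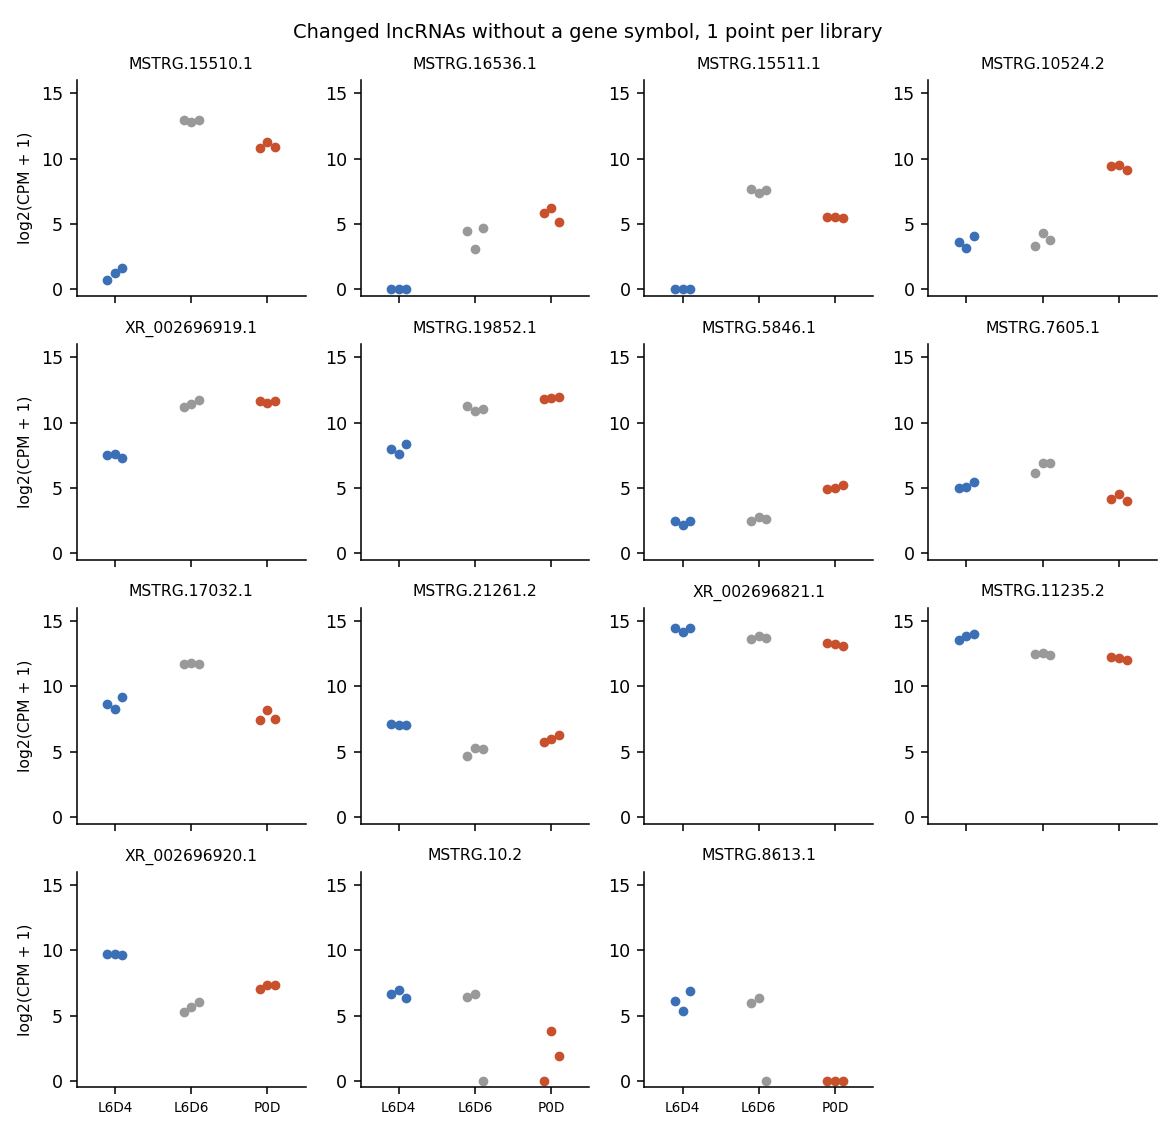
Level of 15 changed lncRNAs without a gene symbol, named for the largest folds, the largest differences in CPM or the clearest timing, as log2(CPM + 1) with 1 point per library. MSTRG.15510.1 and MSTRG.15511.1 are high at L6D6 and lower at P0D, MSTRG.10524.2 and MSTRG.5846.1 are high at P0D alone, and MSTRG.10.2 and MSTRG.8613.1 are at 0 in L6D6 replicate 3.

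Some lncRNAs were seen at only 1 end. No count at L6D4 was found for 11 tested lncRNAs, of which 10 were called, where 26.6% of all tested lncRNAs were. An lncRNA absent at 1 end passed the filter on counts only through the other stages, so these numbers of calls test nothing. The 10 stood at 3.63 to 62.3 CPM at P0D, with folds of at least 9.95 to at least 171 against the floor. Each of the 10 had counts at L6D6, in all 3 libraries for 8. All 3 tested lncRNAs with no count at P0D were called, at 4.16 to 74.5 CPM at L6D4, and none of these was without counts at L6D6. MSTRG.16536.1 had no larval count and stood at 21.2, 7.25 and 24.4 CPM at L6D6 and at 56.6, 74.5 and 34.1 CPM at P0D, at least 151-fold higher. MSTRG.2756.2 was less regular. It had no larval count, stood at 29.8, 32.3 and 0 CPM at L6D6 and at 93.8, 93.1 and 0 CPM at P0D, and its call (adjusted p = 0.0284) ended without any 1 of the L6D4 libraries, without P0D replicate 1 or 2 and with limma-voom (0.0525 to 0.476, edgeR for the others). In the other direction MSTRG.8613.1 stood at 67.7, 40.3 and 115 CPM at L6D4, at 61.4, 80.7 and 0 CPM at L6D6 and at 0 in all pupal libraries, at least 286-fold lower. Its call ended with limma-voom (adjusted p = 0.144). MSTRG.10.2 had a like course, with 99.9, 125 and 83.1 CPM, then 86.3, 98.0 and 0 CPM, then 0, 13.3 and 2.77 CPM, and its call (edgeR adjusted p = 0.0298) ended under 7 alternatives (0.0541 to 0.177). MSTRG.5684.1, also without a pupal count, stood at 4.43, 10.5 and 0 CPM at L6D4, and its call (edgeR adjusted p = 0.045) ended under 9 alternatives (0.0503 to 0.202).

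In a few loci the transcripts changed in opposite directions. Of 139 assembled or RefSeq loci with 2 or more tested transcripts, 25 had 2 or more called ones, and in 22 of these all called transcripts went the same way. In the other 3 the called transcripts went opposite ways. At MSTRG.4110, transcript MSTRG.4110.1 went from 54.7, 76.1 and 53.2 CPM to 41.9, 41.3 and 26.5 CPM, while MSTRG.4110.2 went from 1.77, 3.15 and 2.53 CPM to 36.2, 24.2 and 25.5 CPM. Summed, the locus did not pass the test, at 0.03 on the log2 scale (SE 0.22, edgeR adjusted p = 0.942). The fall of MSTRG.4110.1 (adjusted p = 0.038) lost its call under 10 alternatives (0.0547 to 0.239), and the rise of MSTRG.4110.2 (2.39e-05) under none. At MSTRG.2786, MSTRG.2786.1 rose from 2.36, 4.21 and 0 CPM to 26.2, 24.5 and 19.9 CPM, and MSTRG.2786.2 had 48 counts over the larval and 3 over the pupal libraries, a ratio of 22.4 (95% interval 7.23 to 113, exact, counting error only). The latter call (0.0173) ended with limma-voom and on leaving out L6D4 replicate 3, P0D replicate 1 or P0D replicate 2 (0.0556 to 0.0931, edgeR for the others), and the sum over MSTRG.2786 rose (log2 fold change 1.42, SE 0.40, edgeR adjusted p = 0.0178). Summed over transcripts, 495 of 1752 tested loci changed (28.3%), 257 higher and 238 lower. Of the 53 loci with several tested transcripts and a called one, the sum was called for 37. The sources do not say how reads shared between transcripts were divided, so transcripts of a locus may agree in part through shared reads. Rows with identical values were counted singly, with 4 called in 2 sets, and identical rows of 1 locus agree by construction.

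As estimates on the log2 scale, most of the net change was in place in the prepupa for most changed lncRNAs. For each lncRNA, L6D6 was tested against the midpoint between L6D4 and P0D on the log2 scale, which it passed for 149 of 1913 tested lncRNAs (7.79%). Among the 509 changed lncRNAs it placed 106 past the midpoint, on the pupal side, 75 of them risers and 31 fallers. It placed 10 short of the midpoint, 2 risers and 8 fallers, and gave no call for 393. Without L6D6 replicate 1 or replicate 2 the count past the midpoint was 60 in each case. As estimates, L6D6 lay on the pupal side for 246 of 270 risers and 194 of 239 fallers. The median share of the log2 change present at L6D6 was 85.2% for risers (quartiles 70.3% and 98.6%) and 80.5% for fallers (quartiles 59.4% and 99.9%). For lncRNAs absent at L6D4 this share can be high while the level is still low. In MSTRG.16536.1 it was 84.4%, at a mean of 17.6 CPM at L6D6 against 55.1 CPM at P0D. Taken as steps that share libraries with the whole span, L6D4 to L6D6 called 423 lncRNAs (22.1%) and L6D6 to P0D called 34 (1.78%). Of the risers 187 were called in the first step alone, 5 in the second alone and 72 in neither. Of the fallers 139 were called in the first step alone, 6 in the second alone and 85 in neither.

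**Figure D5:**
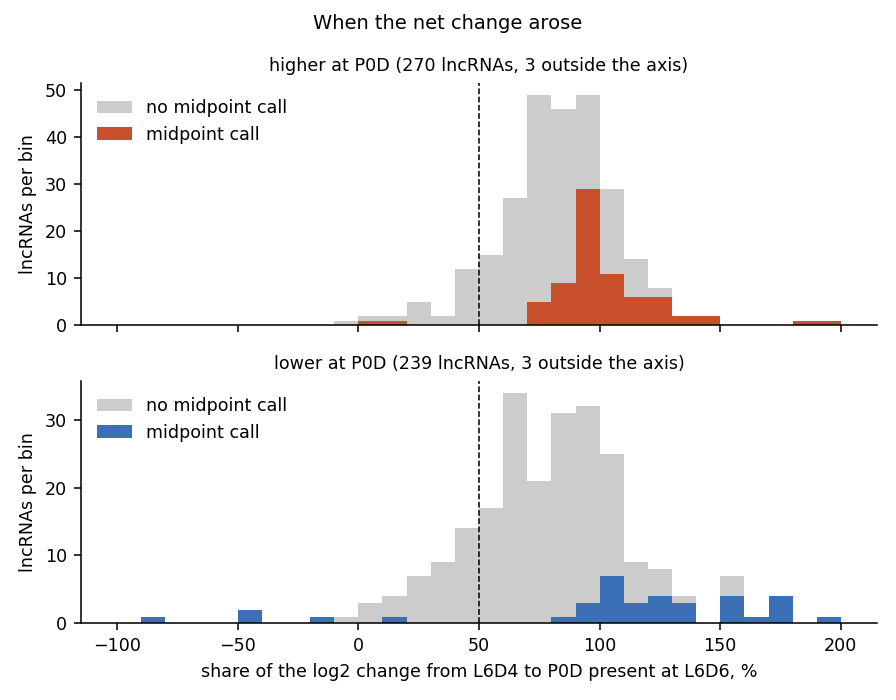
Share of each lncRNA's log2 change from L6D4 to P0D that was present at L6D6, in percent, for 270 risers (top) and 239 fallers (bottom). Coloured bars are lncRNAs whose L6D6 level differed from the midpoint (dashed line, 50%) by edgeR's test, and grey bars the others. Both distributions peak to the right of the midpoint, and 3 lncRNAs in each panel lie outside the axis.

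Some changes were beyond the pupal level in the prepupa. This was so, as estimates, for 60 of the 270 risers and 59 of the 239 fallers. The test called the first step with the net change and the second against it for only 5 risers and 3 fallers. Among those called past the midpoint, a choice that favours such lncRNAs, it was so for 32 of 75 risers and 27 of 31 fallers. XR_002696920.1 stood at 836, 830.2 and 815 CPM at L6D4, at 38.6, 50.7 and 65.4 CPM at L6D6 and at 133, 158 and 162 CPM at P0D. MSTRG.21261.2 had a like course, at 139, 128 and 133 CPM, then 24.7, 37.6 and 36.6 CPM, then 52.4, 63.0 and 78.5 CPM. Each was lowest in the prepupa (midpoint test, edgeR adjusted p = 2.07e-06 and 0.000697). From L6D6 to P0D XR_002696920.1 rose (edgeR adjusted p = 0.000563), while the difference in MSTRG.21261.2 did not pass the test (0.056), and with library totals alone the net call of MSTRG.21261.2 ended (0.213). Among risers MSTRG.15511.1 had no larval count, 199, 163 and 189 CPM at L6D6 and 45.3, 46.2 and 42.6 CPM at P0D, at least 122-fold above the larval floor. Like MSTRG.15510.1 it was highest in the prepupa (midpoint test, edgeR adjusted p = 1.40e-07 and 6.65e-10).

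Few changes were called short of the midpoint, and the 393 without a midpoint call were given no timing by that test. MSTRG.10524.2 stood at 11.5, 7.71 and 15.7 CPM at L6D4 and at 8.85, 18.2 and 12.8 CPM at L6D6, ranges that overlapped, and then at 697, 735 and 549 CPM at P0D. MSTRG.5846.1 stood at 4.43, 3.51 and 4.56 CPM, then at 4.56, 5.84 and 4.99 CPM, then at 29.0, 31.4 and 36.6 CPM. These were the 2 risers short of the midpoint (edgeR adjusted p = 5.74e-05 and 0.0122), with pupal levels 56.7-fold and 7.76-fold the larval ones. Of the 8 fallers short of it, 7 had a higher estimate at L6D6 than at L6D4, so the prepupal estimate lay above both ends. MSTRG.17032.1 stood at 406, 316 and 597 CPM at L6D4, at 3455, 3657 and 3344 CPM at L6D6 and at 169, 287 and 184 CPM at P0D. MSTRG.7605.1 stood at 29.8, 32.3 and 43.6 CPM, then at 68.9, 117 and 119.8 CPM, then at 17.1, 21.9 and 15.1 CPM. The net falls of this pair were 2.06-fold and 1.95-fold, and their calls ended with library totals as the only scaling (adjusted p = 0.101 and 0.187), that of MSTRG.7605.1 also on leaving out replicate 3 of either stage or P0D replicate 1 (0.0676 to 0.0971, edgeR).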

How the data were processed

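Testis RNA of 3 stages, 3 libraries each, was depleted of ribosomal RNA, strand-marked with dUTP and sequenced on a NovaSeq instrument, per the labels' protocols. The molecule label instead reads polyA RNA, and which of these holds bears on the lncRNAs that could be counted. The authors deposited 1 table of estimated counts per lncRNA transcript, not scaled to depth, in which between 61.95% and 65.99% of a library's values were whole (file values). The submitters' processing notes list StringTie 1.3.4, HISAT2 2.1.0, DESeq2 1.6.3, fastp 0.18.0 and Bowtie2 2.2.8, without their roles. The read counter, the build, the annotation and how lncRNAs were selected are not given there or in the labels. All 9 columns matched a sample by name, 0 rows lacked a name, and 155 rows were at 0 throughout. Another 80 rows formed 23 sets with exactly identical values. Every replicate pair differed by more than sampling noise (chi-square of at least 15.45 per degree of freedom).

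Counts were rounded and tested with edgeR 4.0.16 in R 4.3.3 (quasi-likelihood, TMM, filterByExpr by stage) on all 9 libraries, with 6 residual degrees of freedom, leaving out 563 lncRNAs. The test beyond 2-fold was glmTreat. SE is the log2 fold change divided by the root of F. DESeq2 1.42.0 and limma-voom (limma 3.58.1) were alternatives. Annotated IDs were matched by accession without version to RefSeq genes of ASM270686v4: 275 of 557 matched, and 230 were placed beside coding genes. Files do not pair assembled IDs with genes. Floors and intervals cover counting error only.

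On simulated counts of 1913 lncRNAs for P0D against L6D4, with 100 changed at each fold, the test found 42% of the 2-fold and 89% of the 4-fold changes, and 4.38% of its calls were false (6 lncRNAs). These counts were drawn once, with the spread that the fit itself had estimated. How the test behaves where the data depart from that model was not tested.

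The named lncRNAs were those with a symbol among the calls, the 2 largest of each direction without one by fold, CPM difference and timing (mean count of at least 50, ends apart), loci with opposite calls, called lncRNAs without a count at 1 end, and the 2 most abundant. XR_002697156.1 and the untested lncRNAs of the neighbour lists were named beside them. Members, lists and rules were chosen with earlier results of these data known. The design had been written for counts as deposited or, if estimated, rounded.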

Additional observations from a re-analysis of the deposited data

How the results depend on the processing

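No named lncRNA that was called changed direction under any alternative, while with libraries scaled by their totals alone rises outnumbered falls among lncRNAs of at least 1000 CPM (25 and 14), those with a gene symbol (25 and 12) and those overlapping a coding gene (3 and 2). The count of changed lncRNAs (509) lay between 363 and 478 without 1 library and between 373 and 541 under the other alternatives. Under those other alternatives some counts moved by over 1.5 times. With libraries scaled by their totals alone, these were the lncRNAs lower at P0D (98) and the changed lncRNAs short of the midpoint (5). The changes beyond 2-fold moved so with limma-voom (116) or a mean count minimum of 50 (112). Without 1 library each, the lncRNAs lower at P0D ranged from 159 to 216 (lowest without P0D replicate 2). The changed lncRNAs past the midpoint ranged from 60 to 115 (lowest without L6D6 replicate 1 or 2). Both of these lowest counts had moved by over 1.5 times as well. The cause was not tested. The labels do not say that replicate numbers pair the samples. Same-numbered libraries deviated together at r between -0.161 and 0.0974, and the others at r between -0.237 and 0.202. So few libraries cannot exclude a shared batch or day. The fit with the replicate block called 444 lncRNAs, 235 higher and 209 lower, with 435 in common with the main fit. Of 52 named called lncRNAs 31 kept their call under every alternative, 19 of them with a gene symbol. Depth limits lncRNAs of few counts: under 10 CPM the called ones had a median SE of 0.61 on the log2 scale, against 0.21 at 1000 CPM or more.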

Other observations

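Some lncRNAs were uneven within a stage, with no count in 1 library and at least 20 CPM in another of the same stage. This held for 11 tested lncRNAs at L6D4, of which none was called between L6D4 and P0D by edgeR, for 7 at L6D6, of which 3 were called, and for 8 at P0D, of which 1 was called, where 26.6% of all tested lncRNAs were. These lncRNAs were picked for their spread within a stage, which itself makes a call less likely, so the numbers of calls test nothing. At the remaining locus with opposite transcripts, chosen after its values were seen, MSTRG.10487.1 fell from 22.1 ± 4.89 to 12.7 ± 2.07 CPM and MSTRG.10487.2 rose from 3.65 ± 2.25 to 19.1 ± 5.12 CPM (SD, n = 3, edgeR adjusted p = 0.0455 and 0.00242).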
